A study of Mus musculus with 24 samples.

Results

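The genes described here take up, store and burn fatty acids. They are 33 mouse genes chosen by symbol, from the lipase that frees fatty acids in the capillary to the mitochondrial enzymes and carriers that oxidise them, and 30 of the 33 could be measured, among 14499 genes tested. Each of the 30 was read from the probe set that carries its symbol alone. Cpt1b, Acsl1 and Ucp2 were not analysed here, because no probe set carried 1 of those symbols by itself. The rule picked the genes by symbol and used no measured value, but the list was drawn up with earlier results of these data known.

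RNA came from the plantaris, a fast calf muscle, of mice aged 3 months, with 1 whole-transcript array for each of 24 samples. Wildtype mice and mice lacking myostatin (Mstn-/-), the secreted protein that restrains muscle growth, were each split into an untreated and an overloaded group, with 6 biological replicates per group. Overload means that, under pentobarbitone, the soleus and most of the gastrocnemius were cut out of both legs, which left the plantaris to carry their work. The muscle of one leg was then taken. The untreated mice had no sham operation, so loading and surgery cannot be told apart. Not given in the sources used here were the strain, the way the knockout was made, the sex of the mice and the length of the overload.

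Fatty acids reach a muscle fibre from lipoproteins in the blood or from its own lipid droplets, are bound and activated in the cytosol, and cross into the mitochondrion as carnitine esters. There the beta-oxidation spiral shortens them step by step and hands electrons to the respiratory chain. Malonyl-CoA closes the carnitine gate, and pyruvate dehydrogenase kinases spare glucose when fat is burned. In muscle this machinery is most abundant in oxidative fibres, and many of its genes are targets of the nuclear receptors called PPARs and of their coactivator PGC-1alpha.

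Levels below are log2 intensities, differences are log2 differences of group means with their standard error (SE), every group mean rests on 6 arrays, and a gene was called changed at a limma p-value, adjusted by Benjamini and Hochberg over all 14499 genes, under 0.05. The intensity of one probe set says nothing about that of another, so levels are compared only within a gene. Array medians lay between 139 and 147 intensity units. Every group mean of every fatty acid gene was at least 7.48, above the filter of 6.63, so none entered the test through 1 group alone. Mstn itself measured 10.10 to 10.40 (median 10.27) in untreated wildtype and 8.53 to 9.33 (median 8.87) in untreated Mstn-/- muscle, without overlap (-1.33 ± 0.13, adjusted p = 2.7e-08). In the overloaded muscles it measured 8.19 to 8.63 (median 8.37) in wildtype and 7.87 to 8.66 (median 8.22) in Mstn-/-, which overlapped (-0.15 ± 0.13, adjusted p = 0.39), so it checks the genotype labels of the untreated arrays only. Overloaded wildtype replicate 3 stood apart: it was the lowest of its group for 23 of the 30 fatty acid genes and its median correlation with its group, 0.9791, was the lowest of the 24 arrays. The muscle label was borne out by the 7 myofibre markers, each of which had an intensity of at least 4110 on every array.

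Overload lowered almost the whole set in wildtype muscle. Of the 30 genes 29 fell and 0 rose, where 35.6% of all genes tested fell and 30.3% rose. For 28 of the 30, all 6 overloaded arrays lay below all 6 untreated ones, which held for 21.1% of all genes. The median difference of the 30 was -0.81, against -0.06 over all genes tested. The fall was at least 2-fold for 6 of them (2.28% of all genes), namely Lpl, Slc27a1, Acacb, Acadm, Ucp3 and Acot2. Only Plin2 was not called. In whole muscle, fewer cells of a type and less RNA per cell cannot be told apart. With arrays shifted to the same median of the tested genes the split over all genes moved from 4396 higher and 5164 lower to 3614 and 7091, and all 30 were lower. With arrays shifted to the same mean of 7 myofibre markers it moved to 8810 and 2103, the median of all genes to 0.22, and 27 of the 30 were lower with a median of -0.54. Myh4 and Tnnt3 of these markers are also fast-fibre markers, and Myh4 fell most (-1.08 ± 0.10, adjusted p = 4.8e-10). The other markers differed by -0.30 to 0.11, so this shift cannot tell fibre content from fibre type. Without overloaded wildtype replicate 3, 29 of the 30 genes fell, as did 4871 of all genes, and the median of the 30 was -0.76.

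In Mstn-/- muscle the same operation moved the set less. Here 16 of the 30 genes fell, where 33.5% of all genes fell, and 3 rose (Plin2, Acadl and Ucp3), where 27.1% did. The median difference was -0.24, against -0.06 over all genes. All 6 overloaded arrays lay below all untreated ones for 14 genes (20.1% of all genes) and above them for Plin2 alone (19.8%). No fall reached 2-fold, which 0.731% of all genes did. A fall beyond -0.5 was measured for 26 genes in wildtype (11.8% of all genes) and for 4 in Mstn-/- (6.17%), and 16 genes were called lower in both genotypes (25.7%). Over all genes the split of 3932 higher and 4857 lower became 3188 and 7147 after the shift by the tested genes, with 1 fatty acid gene higher and 20 lower, and 5313 and 2363 after the shift by the myofibre markers, with 3 higher and 11 lower. That last shift brought the median of the 30 to -0.12 and that of all genes to 0.06.

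The difference between the responses was itself tested. It was positive, meaning a smaller fall or a larger rise in Mstn-/- muscle, and past the threshold for 27 of the 30 genes, against 8.92% of all genes, and negative past the threshold for 0, against 8.44%. Its median was 0.56, against -0.02 over all genes. The genes not called were Plin5, Acacb and Acads. Both a fall in wildtype and a positive difference were called for 26 genes, against 7.7% of all genes. Leaving out overloaded wildtype replicate 3 gave 25 of the 30 genes, and 1091 of all genes, with a positive difference. The median of the 30 became 0.52. Over all genes the split of 1293 positive and 1223 negative became 668 and 3691 after the shift by the myofibre markers, under which the median of all genes was -0.16 and 23 of the 30 were positive.

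**Figure D1:**
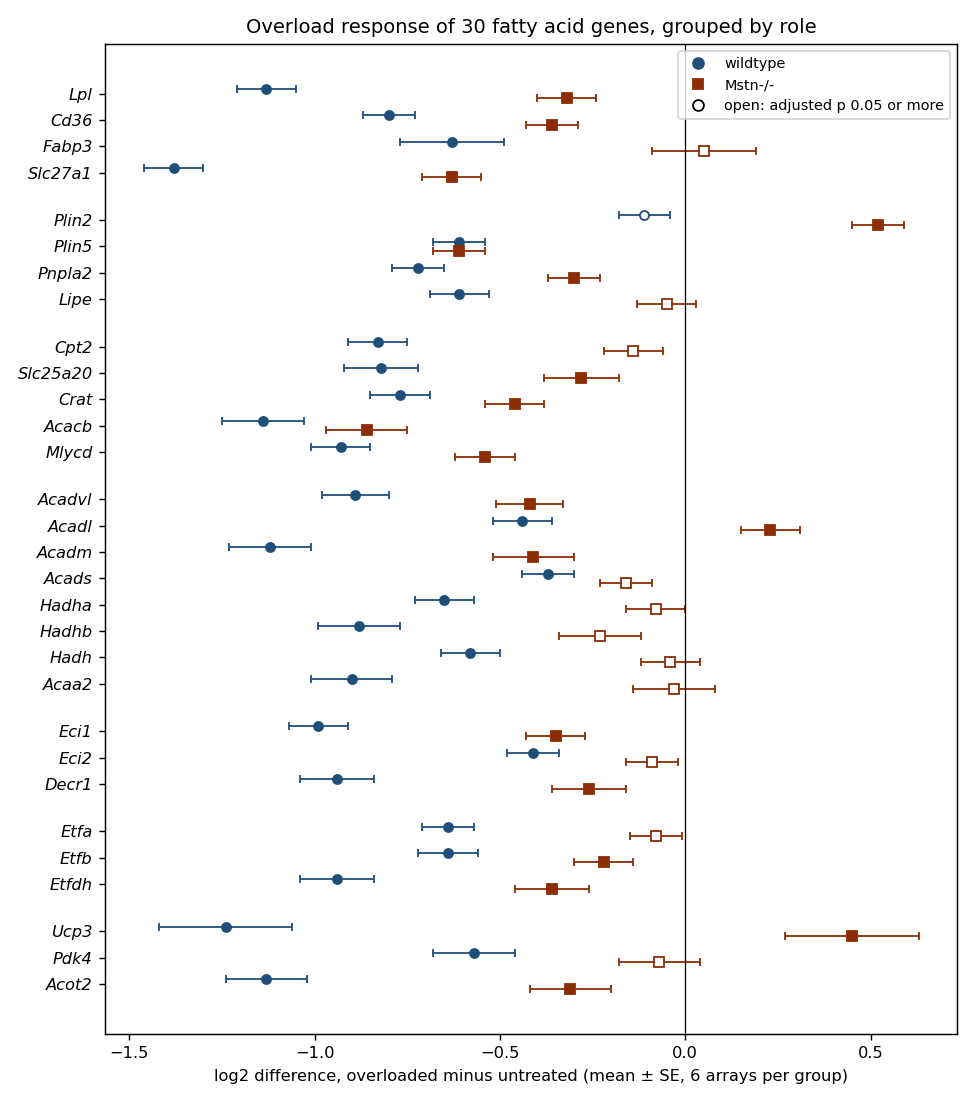
Overload response of the 30 measured fatty acid genes, as the log2 difference of overloaded minus untreated group means with its SE (horizontal bars, 6 arrays per group), for wildtype (circles) and Mstn-/- (squares), in blocks by role. Filled symbols passed the limma threshold. The wildtype symbols lie left of the Mstn-/- symbols for 29 genes, and those of Plin5 coincide at -0.61.

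The comparisons share arrays: untreated wildtype enters both the wildtype response and the genotype comparison of untreated muscle (called at rest here), so their counts are not separate evidence. At rest, 18 of the 30 genes were lower in Mstn-/- than in wildtype muscle, where 10.2% of all genes were, and 0 were higher, where 11.1% were. For 16 genes the arrays did not overlap (5.47% of all genes), and Eci2 alone lay wholly higher (6.53%) although its difference was not called. The median was -0.25, against -0.01. After overload the order of the genotypes turned: 17 of the 30 were higher in Mstn-/- than in wildtype, where 17.5% of all genes were, and 0 were lower, where 19% were. The arrays did not overlap for Eci2, Decr1 and Etfa, 3 genes in all (7.06% of all genes), and no gene lay wholly lower (8.46% of all genes). The median was 0.26, against -0.03. Without overloaded wildtype replicate 3, 12 of the 30 were higher, as were 2278 of all genes, and the median of the 30 was 0.18. Over all genes the shift by the myofibre markers moved the split at rest from 1616 higher and 1475 lower to 1127 and 1548, and after overload from 2540 and 2753 to 1135 and 8520, with 9 fatty acid genes higher and 2 lower. The median of the 30 after overload was then 0.09, and that of all genes -0.20.

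The group means fell in 1 order for 22 of the 30 genes: untreated wildtype, then untreated Mstn-/-, then overloaded Mstn-/-, then overloaded wildtype. That order held for 10.5% of all genes tested. Untreated wildtype had the highest mean for 28 genes (30.4% of all genes), the exceptions being Acacb and Eci2, and overloaded wildtype the lowest for 27 (32.1%), the exceptions being Plin2, Plin5 and Pdk4. Neighbours in that order often did not differ past the threshold, as the values of each gene show.

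**Figure D2:**
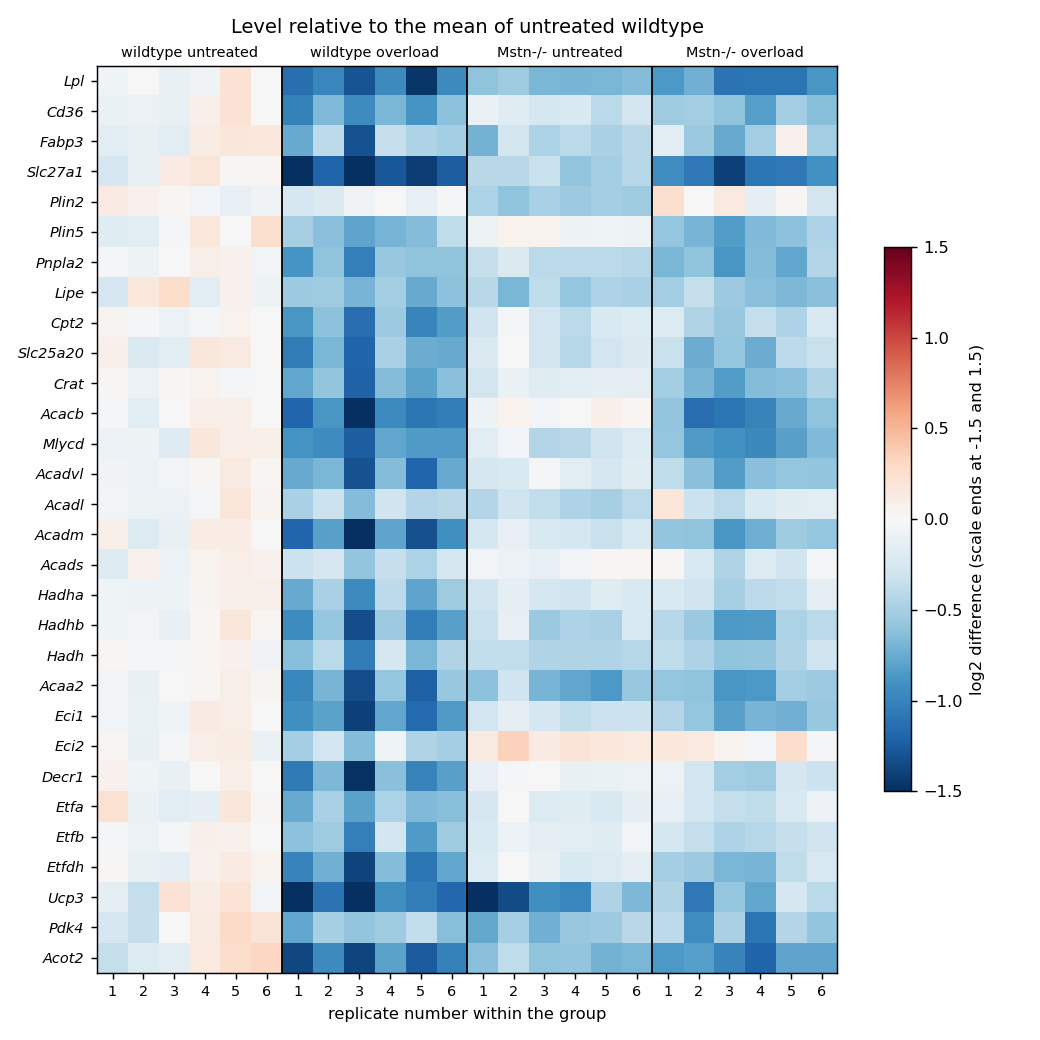
Level of each of the 30 genes (rows, ordered by role) on each of the 24 arrays (columns, replicates 1 to 6 of each group), as the log2 difference from the mean of untreated wildtype; the colour scale ends at -1.5 and 1.5. The block of overloaded wildtype arrays is the darkest blue, with replicate 3 the lowest of its group for 23 genes. Overloaded wildtype has the lowest group mean in every row but those of Plin2, Plin5 and Pdk4.

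All 4 measured genes of uptake and binding fell under overload in wildtype (35.6% of all genes), and 3 of them in Mstn-/- (33.5%). Lpl encodes lipoprotein lipase, which frees fatty acids from circulating triglyceride at the capillary wall. It measured 11.77 to 12.10 (median 11.86) in untreated and 10.42 to 10.92 (median 10.83) in overloaded wildtype muscle. In Mstn-/- muscle it measured 11.18 to 11.35 (median 11.21) untreated and 10.77 to 11.16 (median 10.90) overloaded. Overloaded arrays lay below untreated ones in both genotypes, untreated Mstn-/- lay wholly below untreated wildtype, and the overloaded groups overlapped. The fall was 2.19-fold for wildtype (-1.13 ± 0.08, adjusted p = 5.4e-12) and 1.25-fold for Mstn-/- (-0.32 ± 0.08, adjusted p = 0.0018), and the responses differed by 0.82 ± 0.12 (adjusted p = 3.1e-05). Of the 30 genes, Lpl had the smallest adjusted p for a lower level in untreated Mstn-/- muscle (-0.64 ± 0.08, adjusted p = 2.3e-06).

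Slc27a1, a fatty acid transport protein of the plasma membrane, showed the largest fall of the set in wildtype. Its wildtype arrays gave 10.56 to 10.99 (median 10.84) untreated and 9.20 to 9.60 (median 9.47) overloaded. Its Mstn-/- arrays gave 10.22 to 10.47 (median 10.39) untreated and 9.41 to 9.90 (median 9.73) overloaded. All groups were apart from each other except the overloaded pair. The fall was 2.6-fold in wildtype (-1.38 ± 0.08, adjusted p = 1.9e-13) against 1.55-fold in Mstn-/- (-0.63 ± 0.08, adjusted p = 4.2e-07), with a difference of 0.75 ± 0.12 (adjusted p = 9.8e-05). Overloaded Mstn-/- muscle stood 0.30 ± 0.08 above overloaded wildtype (adjusted p = 0.0062).

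Cd36, the membrane receptor that carries long-chain fatty acids into the fibre, measured 11.68 to 12.01 (median 11.75) in untreated and 10.78 to 11.17 (median 11.00) in overloaded wildtype. Its Mstn-/- levels were 11.38 to 11.69 (median 11.54) and 10.96 to 11.27 (median 11.21). Untreated and overloaded arrays were apart in each genotype, while the genotypes overlapped within each treatment. Cd36 fell in wildtype (-0.80 ± 0.07, adjusted p = 4.4e-10) and in Mstn-/- (-0.36 ± 0.07, adjusted p = 0.00014), a difference of 0.44 ± 0.10 (adjusted p = 0.0047). Its genotype differences were small, -0.24 ± 0.07 at rest (adjusted p = 0.018) and 0.19 ± 0.07 after overload (adjusted p = 0.043). The first was lost without untreated wildtype replicate 5 or untreated Mstn-/- replicate 5 (-0.21 to -0.20), and the second without any 1 of 8 overloaded arrays (0.15 to 0.20, adjusted p up to 0.12).

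Fabp3, the cytosolic fatty acid binding protein of heart and muscle, measured 11.59 to 11.92 (median 11.75) in untreated and 10.45 to 11.41 (median 11.27) in overloaded wildtype muscle. Its Mstn-/- values were 11.04 to 11.48 (median 11.31) untreated and 10.99 to 11.82 (median 11.24) overloaded. The wildtype groups did not overlap and the Mstn-/- groups did. Fabp3 fell 1.54-fold in wildtype (-0.63 ± 0.14, adjusted p = 0.00024), its difference in Mstn-/- was 0.05 ± 0.14 (adjusted p = 0.76), and the responses differed by 0.68 ± 0.19 (adjusted p = 0.015). A second Fabp3 probe set gave -0.40 ± 0.09 in wildtype, 0.11 ± 0.09 in Mstn-/- and 0.50 ± 0.13 for the difference, with the same calls.

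Among the droplet genes, Plin2 was the only one of the 30 not called in overloaded wildtype muscle. It codes for perilipin 2, a coat protein that rises with the lipid stored in a droplet. The 250 bases before its RefSeq start (GRCm38.p6, chr4:86670060-86670309, minus strand) are shown because Plin2 was the gene of the set that rose most in Mstn-/- muscle, with the letters AGGTCA, the core letters to which nuclear receptors bind, in capitals where they occur on either strand.
Plin2: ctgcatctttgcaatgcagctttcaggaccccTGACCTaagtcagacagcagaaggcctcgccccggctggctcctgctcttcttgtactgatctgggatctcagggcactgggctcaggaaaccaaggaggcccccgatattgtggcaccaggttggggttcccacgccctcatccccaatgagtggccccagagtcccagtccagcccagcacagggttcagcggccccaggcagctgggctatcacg
The match begins at -218 from the start and reads TGACCT on the strand shown. Plin2 measured 10.17 to 10.41 (median 10.28) in untreated and 10.04 to 10.30 (median 10.21) in overloaded wildtype, groups that overlapped. Mstn-/- muscle gave 9.68 to 9.81 (median 9.77) untreated and 10.01 to 10.53 (median 10.30) overloaded. The 6 untreated Mstn-/- arrays lay below all 18 others. Overload raised Plin2 1.44-fold in Mstn-/- (0.52 ± 0.07, adjusted p = 3.4e-07), against a difference of -0.11 ± 0.07 in wildtype (adjusted p = 0.17). The responses differed by 0.63 ± 0.10 (adjusted p = 7.6e-05), and at rest Plin2 was lower in Mstn-/- (-0.53 ± 0.07, adjusted p = 3e-06), while the overloaded genotypes were not called different (0.10 ± 0.07, adjusted p = 0.25).

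Plin5, the perilipin that ties droplets to mitochondria in oxidative tissue, fell by the same mean amount in both genotypes. It measured 7.94 to 8.36 (median 8.10) untreated and 7.33 to 7.74 (median 7.49) overloaded in wildtype. In the knockout it measured 8.04 to 8.17 (median 8.06) and 7.28 to 7.66 (median 7.49). Overload separated the arrays in each genotype, and the genotypes overlapped throughout. The fall was 1.52-fold for wildtype (-0.61 ± 0.07, adjusted p = 6.2e-08) and 1.53-fold for Mstn-/- (-0.61 ± 0.07, adjusted p = 1.1e-07). The difference of the responses was 0.00, with a 95% interval from -0.22 to 0.21.

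Pnpla2, the adipose triglyceride lipase that starts the breakdown of stored triglyceride, measured 10.96 to 11.12 (median 11.01) untreated and 10.01 to 10.46 (median 10.43) overloaded in wildtype. For Mstn-/- the values were 10.60 to 10.82 (median 10.63) and 10.16 to 10.59 (median 10.37). Overloaded arrays lay below untreated ones in both genotypes. It fell 1.64-fold in wildtype muscle (-0.72 ± 0.07, adjusted p = 3.4e-09) and, in Mstn-/- muscle, 1.23-fold (-0.30 ± 0.07, adjusted p = 0.001), a difference of 0.41 ± 0.10 (adjusted p = 0.0069). Lipe, hormone-sensitive lipase, which takes the next step, measured 9.12 to 9.65 (median 9.37) untreated and 8.62 to 8.87 (median 8.79) overloaded in wildtype. Levels in Mstn-/- were 8.69 to 8.99 (median 8.90) and 8.70 to 9.02 (median 8.79), which overlapped. Its fall of 1.53-fold in wildtype (-0.61 ± 0.08, adjusted p = 9.4e-08) contrasted with -0.05 ± 0.08 in Mstn-/- (adjusted p = 0.55), and the responses differed by 0.55 ± 0.11 (adjusted p = 8e-04). At rest both lipases were lower in Mstn-/-, with differences of -0.37 ± 0.07 for Pnpla2 and -0.50 ± 0.08 for Lipe (adjusted p = 7e-04 and 2.7e-05). Lipe is abundant in fat cells, and it is 1 of the adipocyte markers whose sums are given further on.

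**Figure D3:**
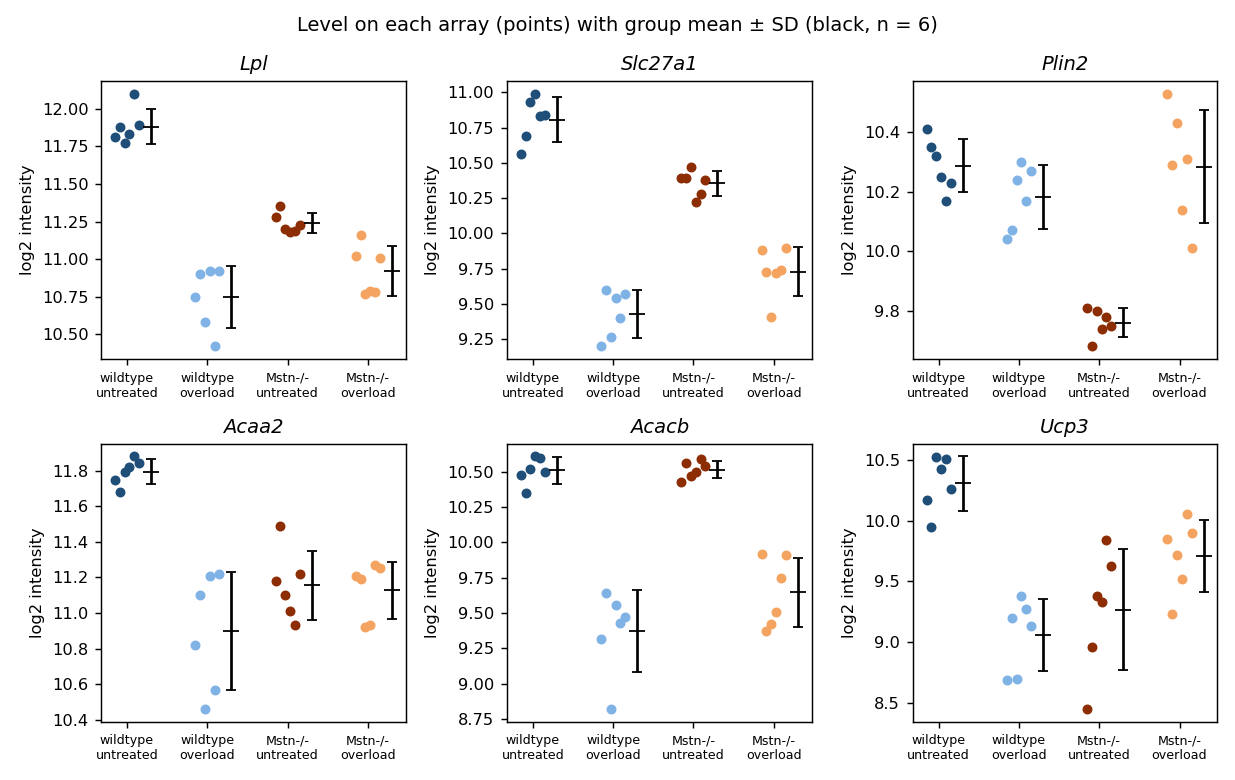
Log2 intensity of Lpl, Slc27a1, Plin2, Acaa2, Acacb and Ucp3 on each array (points), with the group mean and SD in black (n = 6 per group); each panel has its own vertical scale, which does not start at 0. Slc27a1 and Acacb fell in both genotypes, Plin2 rose in Mstn-/- from the lowest level of the 4 groups, and the untreated Mstn-/- arrays of Ucp3 spread from 8.45 to 9.84.

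The carnitine shuttle and the genes that set its gate fell together in wildtype, 5 of 5 measured (35.6% of all genes). In Mstn-/- 4 of 5 fell (33.5%). Cpt2, the inner-membrane carnitine palmitoyltransferase, measured 10.38 to 10.52 (median 10.46) untreated and 9.32 to 9.92 (median 9.61) overloaded in wildtype. The Mstn-/- arrays gave 10.06 to 10.43 (median 10.21) and 9.89 to 10.26 (median 10.06). The wildtype groups were apart and the Mstn-/- groups overlapped. It fell 1.78-fold in wildtype muscle (-0.83 ± 0.08, adjusted p = 1.4e-09), its difference in Mstn-/- was -0.14 ± 0.08 (adjusted p = 0.13), and the responses differed by 0.69 ± 0.12 (adjusted p = 0.00019). After overload it was 0.45 ± 0.08 higher in Mstn-/- (adjusted p = 0.00011). At rest it was lower (-0.24 ± 0.08, adjusted p = 0.036), a call lost without any 1 of 9 untreated arrays (-0.24 to -0.21, adjusted p up to 0.09).

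Slc25a20, the translocase that exchanges acylcarnitine for carnitine, measured 9.82 to 10.21 (median 10.08) untreated and 8.84 to 9.55 (median 9.29) overloaded in wildtype. Its Mstn-/- levels were 9.61 to 10.04 (median 9.80) and 9.29 to 9.71 (median 9.55), which overlapped. It fell 1.77-fold in wildtype muscle (-0.82 ± 0.10, adjusted p = 1.1e-07) and, in Mstn-/- muscle, 1.21-fold (-0.28 ± 0.10, adjusted p = 0.022), a difference of 0.54 ± 0.15 (adjusted p = 0.012). The fall in Mstn-/- was lost without untreated replicate 2, overloaded replicate 2 or overloaded replicate 4 of that genotype (-0.24 to -0.23). Its higher level in overloaded Mstn-/- (0.30 ± 0.10, adjusted p = 0.025) was lost without overloaded wildtype replicate 1 or 3 or overloaded Mstn-/- replicate 1, 5 or 6 (0.22 to 0.27).

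Crat, carnitine acetyltransferase, which buffers acetyl-CoA, measured 12.19 to 12.33 (median 12.28) untreated and 11.06 to 11.68 (median 11.57) overloaded in wildtype. Mstn-/- muscle gave 12.00 to 12.17 (median 12.12) and 11.44 to 11.82 (median 11.63). Untreated and overloaded arrays were apart in both genotypes, with falls of 1.71-fold (-0.77 ± 0.08, adjusted p = 1.9e-09) and 1.37-fold (-0.46 ± 0.08, adjusted p = 1.5e-05). The difference of 0.32 ± 0.11 (adjusted p = 0.047) was among the weakest called, and leaving out any 1 of 17 of the 24 arrays ended the call (0.23 to 0.32, adjusted p up to 0.089). The resting genotype difference of -0.17 was called, among the fits that left out 1 array, only without overloaded wildtype replicate 3 (adjusted p = 0.027). Among the other settings it was called with only the groups compared (adjusted p = 0.0097), with array weights (0.046) and after the myofibre-marker shift (0.027). The remaining settings left it uncalled.

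Acacb, the acetyl-CoA carboxylase that makes malonyl-CoA at the mitochondrial surface, measured 10.35 to 10.61 (median 10.51) untreated and 8.82 to 9.64 (median 9.45) overloaded in wildtype. In the knockout it measured 10.43 to 10.59 (median 10.52) and 9.37 to 9.92 (median 9.63). At rest the genotypes had the same mean (0.00 ± 0.11), and overload separated the arrays in both. The falls were 2.2-fold (-1.14 ± 0.11, adjusted p = 5.4e-10) and 1.82-fold (-0.86 ± 0.11, adjusted p = 1.2e-07), and their difference was not called (0.27 ± 0.15, adjusted p = 0.24). The overloaded genotypes differed by 0.27 ± 0.11 (adjusted p = 0.044), a call lost without any 1 of 7 arrays (0.16 to 0.29, adjusted p up to 0.15), among them overloaded wildtype replicate 3. Mlycd, malonyl-CoA decarboxylase, which removes malonyl-CoA, measured 8.73 to 9.09 (median 8.93) untreated and 7.69 to 8.14 (median 8.05) overloaded in wildtype. For Mstn-/- the values were 8.48 to 8.88 (median 8.68) and 7.96 to 8.34 (median 8.09). It fell 1.9-fold in wildtype muscle (-0.93 ± 0.08, adjusted p = 2.3e-10) and, in Mstn-/- muscle, 1.45-fold (-0.54 ± 0.08, adjusted p = 3.5e-06), a difference of 0.39 ± 0.12 (adjusted p = 0.022). The maker and the remover of malonyl-CoA both fell in each genotype. The lower resting level of Mlycd in Mstn-/- (-0.26 ± 0.08, adjusted p = 0.026) was lost without untreated wildtype replicate 4, 5 or 6 or untreated Mstn-/- replicate 3 or 4 (-0.24 to -0.22).

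All 8 genes of the beta-oxidation spiral fell in overloaded wildtype muscle (35.6% of all genes), with a median of -0.76. In Mstn-/- 2 fell (33.5%), 1 rose (27.1%) and 5 were not called, with a median of -0.12. The first step of each turn is made by acyl-CoA dehydrogenases, which differ in the chain lengths they take. Acadvl, for very long chains, measured 9.88 to 10.10 (median 9.95) untreated and 8.66 to 9.32 (median 9.21) overloaded in wildtype. Levels in Mstn-/- were 9.71 to 9.94 (median 9.76) and 9.13 to 9.59 (median 9.36). Overload separated the arrays in both genotypes, with falls of 1.86-fold (-0.89 ± 0.09, adjusted p = 3.5e-09) and 1.34-fold (-0.42 ± 0.09, adjusted p = 0.00033) and a difference of 0.47 ± 0.13 (adjusted p = 0.013). Its higher level in overloaded Mstn-/- (0.29 ± 0.09, adjusted p = 0.017) was lost without overloaded wildtype replicate 3 or 5 (0.20 to 0.23).

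Acadl, for long chains, moved in opposite directions in the genotypes. It measured 10.74 to 11.01 (median 10.81) untreated and 10.18 to 10.54 (median 10.41) overloaded in wildtype. The Mstn-/- arrays gave 10.34 to 10.54 (median 10.41) and 10.43 to 11.02 (median 10.63). The wildtype groups were apart and the Mstn-/- groups overlapped. Acadl fell 1.35-fold in wildtype (-0.44 ± 0.08, adjusted p = 1.3e-05) and rose 1.17-fold in Mstn-/- (0.23 ± 0.08, adjusted p = 0.011), so that the responses differed by 0.66 ± 0.11 (adjusted p = 0.00012). With arrays shifted to the same median of the tested genes the rise was no longer called (0.15, adjusted p = 0.093).

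Acadm, for medium chains, showed the largest fall of the spiral in wildtype, and its promoter is shown for that reason (RefSeq, GRCm38.p6, chr3:153944644-153944893, minus strand, the 250 bases before the start, AGGTCA on either strand in capitals).
Acadm: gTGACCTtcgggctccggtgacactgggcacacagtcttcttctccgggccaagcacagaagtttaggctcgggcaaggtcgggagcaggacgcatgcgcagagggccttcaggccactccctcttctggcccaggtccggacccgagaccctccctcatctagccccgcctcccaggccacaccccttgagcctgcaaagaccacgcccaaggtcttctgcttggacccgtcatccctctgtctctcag
The match begins at -249 and extends to AAGGTCA, the extended core bound by estrogen-related receptors, on the opposite strand. Acadm measured 11.77 to 12.09 (median 12.02) untreated and 10.31 to 11.19 (median 10.93) overloaded in wildtype. Its Mstn-/- levels were 11.65 to 11.85 (median 11.73) and 11.10 to 11.44 (median 11.39). Untreated and overloaded arrays were apart in both genotypes. The falls were 2.17-fold (-1.12 ± 0.11, adjusted p = 6.7e-10) and 1.33-fold (-0.41 ± 0.11, adjusted p = 0.0016), a difference of 0.70 ± 0.15 (adjusted p = 0.0017). After overload Acadm was 0.46 ± 0.11 higher in Mstn-/- (adjusted p = 0.0011). Its resting difference of -0.24 ± 0.11 was called, among the fits that left out 1 array, only without overloaded wildtype replicate 3 (adjusted p = 0.033). Among the other settings it was called with only the groups compared (adjusted p = 0.0097), with array weights (0.038) and after the myofibre-marker shift (0.046). The remaining settings left it uncalled. Acads, for short chains, had the smallest called fall of the set in wildtype, from a mean of 9.60 to 9.22 (-0.37 ± 0.07, adjusted p = 5.6e-05). Its Mstn-/- means were 9.56 and 9.40 (-0.16 ± 0.07, adjusted p = 0.059), and the difference of the responses was not called (0.21 ± 0.10, adjusted p = 0.16). Leaving out any 1 of 5 arrays brought its fall in Mstn-/- (-0.20 to -0.16) past the threshold, and likewise its genotype difference after overload (0.18 to 0.23). Array weights also brought the fall past it (adjusted p = 0.018), and a 50th percentile filter the genotype difference (0.046). A replicate block did so for both (0.034 and 0.032). So did shifts to the same median of all probe sets (0.035 and 0.035) and of the tested genes (0.0074 and 0.047).

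Hadha and Hadhb encode the alpha and beta subunits of the trifunctional protein, which carries out the later steps for long chains. They lie head to head on chromosome 5, their RefSeq starts 273 bases apart, so that their 300-base promoter windows share 228 bases. The 250 bases before the Hadhb start (GRCm38.p6, chr5:30155003-30155252, plus strand) are shown with the shared bases in capitals, because 1 stretch of DNA lies before both genes.
Hadhb: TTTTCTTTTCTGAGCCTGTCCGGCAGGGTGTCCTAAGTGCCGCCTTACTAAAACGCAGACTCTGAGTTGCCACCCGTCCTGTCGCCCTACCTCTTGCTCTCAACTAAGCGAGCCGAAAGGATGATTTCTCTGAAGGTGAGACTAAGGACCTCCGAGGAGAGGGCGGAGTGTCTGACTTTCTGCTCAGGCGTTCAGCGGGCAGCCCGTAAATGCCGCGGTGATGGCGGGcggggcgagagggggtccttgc
No AGGTCA letters occur in either window. Hadha measured 11.63 to 11.79 (median 11.70) untreated and 10.75 to 11.31 (median 11.06) overloaded in wildtype. Mstn-/- muscle gave 11.40 to 11.56 (median 11.46) and 11.20 to 11.57 (median 11.37). Hadhb measured 11.16 to 11.44 (median 11.27) untreated and 9.94 to 10.73 (median 10.39) overloaded in wildtype. For both genes the wildtype groups were apart. In Mstn-/- Hadhb measured 10.72 to 11.15 (median 10.87) and 10.41 to 10.87 (median 10.76), and for both genes these groups overlapped. The wildtype falls were 1.57-fold for Hadha (-0.65 ± 0.08, adjusted p = 2.8e-08) and 1.84-fold for Hadhb (-0.88 ± 0.11, adjusted p = 9.2e-08). In Mstn-/- the differences were -0.08 ± 0.08 (adjusted p = 0.34) and -0.23 ± 0.11 (adjusted p = 0.075), neither of them called. The responses differed by 0.57 ± 0.11 for Hadha (adjusted p = 0.00062) and 0.65 ± 0.15 for Hadhb (adjusted p = 0.0046). At rest both were lower in Mstn-/-, with differences of -0.24 ± 0.08 for Hadha (adjusted p = 0.027) and -0.37 ± 0.11 for Hadhb (adjusted p = 0.017). The Hadha call was lost without any 1 of 6 untreated arrays (-0.23 to -0.22, adjusted p up to 0.059). After overload both were higher, by 0.33 ± 0.08 (adjusted p = 0.0012) and 0.28 ± 0.11 (adjusted p = 0.047), and the Hadhb call was lost without any 1 of 16 arrays (0.19 to 0.29, adjusted p up to 0.15). The Hadhb fall in Mstn-/- was called, among the fits that left out 1 array, only without overloaded wildtype replicate 3 or overloaded Mstn-/- replicate 6 (-0.27 to -0.23). Among the other settings it was called with array weights (adjusted p = 0.047), a replicate block (0.042) and only the groups compared (0.045). The shift to the same median of the tested genes also gave a call (0.015).

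Hadh, the hydroxyacyl-CoA dehydrogenase for shorter chains, measured 12.46 to 12.58 (median 12.51) untreated and 11.47 to 12.26 (median 11.97) overloaded in wildtype. In the knockout it measured 12.06 to 12.15 (median 12.07) and 11.91 to 12.22 (median 12.06), which overlapped. It fell 1.49-fold in wildtype muscle (-0.58 ± 0.08, adjusted p = 1.1e-06) against -0.04 ± 0.08 in Mstn-/- (adjusted p = 0.67), a difference of 0.54 ± 0.12 (adjusted p = 0.0026). Acaa2, the thiolase that closes the spiral, had the largest difference of the responses among the spiral genes. It measured 11.68 to 11.88 (median 11.81) untreated and 10.46 to 11.22 (median 10.96) overloaded in wildtype. For Mstn-/- the values were 10.93 to 11.49 (median 11.14) and 10.92 to 11.27 (median 11.20). Untreated wildtype lay above all other arrays, and the other 3 groups overlapped. Acaa2 fell 1.86-fold in wildtype (-0.90 ± 0.11, adjusted p = 9.2e-08), its difference in Mstn-/- was -0.03 ± 0.11 (adjusted p = 0.85), and the responses differed by 0.87 ± 0.16 (adjusted p = 0.00043). At rest it was 1.55-fold lower in Mstn-/- (-0.64 ± 0.11, adjusted p = 0.00017). Its genotype difference after overload (0.23 ± 0.11, adjusted p = 0.11) was called, among the fits that left out 1 array, only without overloaded wildtype replicate 4 or 6 (0.30).

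Double bonds need helper enzymes, and these 3 genes stood higher in overloaded Mstn-/- than in overloaded wildtype muscle (17.5% of all genes). Eci1, an enoyl-CoA isomerase of the mitochondrion, measured 10.32 to 10.55 (median 10.40) untreated and 9.03 to 9.64 (median 9.54) overloaded in wildtype. Levels in Mstn-/- were 10.06 to 10.29 (median 10.12) and 9.61 to 9.98 (median 9.79). Overload separated the arrays in both genotypes, with falls of 1.98-fold (-0.99 ± 0.08, adjusted p = 8.3e-11) and 1.28-fold (-0.35 ± 0.08, adjusted p = 7e-04) and a difference of 0.63 ± 0.12 (adjusted p = 5e-04). After overload it was 0.35 ± 0.08 higher in Mstn-/- (adjusted p = 0.0015). Eci2, a second isomerase that also occurs in peroxisomes, was the only member whose untreated Mstn-/- arrays all lay above untreated wildtype. It measured 8.81 to 9.04 (median 8.93) untreated and 8.28 to 8.86 (median 8.45) overloaded in wildtype, with overlap. The Mstn-/- arrays gave 9.05 to 9.27 (median 9.08) and 8.89 to 9.19 (median 9.03). It fell 1.33-fold in wildtype muscle (-0.41 ± 0.07, adjusted p = 2.8e-05) and had a difference of -0.09 ± 0.07 in Mstn-/- (adjusted p = 0.31). Eci2 had the smallest adjusted p of the 30 for a higher level in overloaded Mstn-/- (0.50 ± 0.07, adjusted p = 9.2e-06), while its resting difference of 0.18 ± 0.07 was called, among the fits that left out 1 array, only without overloaded wildtype replicate 4 (adjusted p = 0.033). Among the other settings that resting difference was called only with array weights (adjusted p = 0.037) and with only the groups compared (0.024). The difference of the responses, 0.32 ± 0.11 (adjusted p = 0.036), was lost without any 1 of 14 arrays (0.27 to 0.32, adjusted p up to 0.069).

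Decr1, the mitochondrial dienoyl-CoA reductase, measured 9.91 to 10.12 (median 10.03) untreated and 8.54 to 9.39 (median 9.11) overloaded in wildtype. Its Mstn-/- levels were 9.90 to 10.02 (median 9.93) and 9.49 to 9.93 (median 9.71). The overloaded wildtype arrays lay below every other array. Decr1 fell 1.92-fold in wildtype (-0.94 ± 0.10, adjusted p = 4.2e-09) and, in Mstn-/- muscle, 1.2-fold (-0.26 ± 0.10, adjusted p = 0.026), a difference of 0.68 ± 0.14 (adjusted p = 0.0012). The genotypes were close at rest (-0.07 ± 0.10, adjusted p = 0.66) and 1.53-fold apart after overload (0.61 ± 0.10, adjusted p = 2.7e-05). The fall in Mstn-/- was lost without overloaded Mstn-/- replicate 3 or 4 (-0.22).

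The electron transfer flavoprotein takes the electrons of the acyl-CoA dehydrogenases, and its dehydrogenase passes them to ubiquinone. None of these 3 genes was called different between the genotypes at rest, where 10.2% of all genes were lower and 11.1% higher. All 3 were higher in Mstn-/- after overload (17.5% of all genes). Etfa, the alpha subunit, measured 10.09 to 10.48 (median 10.21) untreated and 9.45 to 9.78 (median 9.60) overloaded in wildtype. Mstn-/- muscle gave 10.00 to 10.26 (median 10.06) and 9.87 to 10.17 (median 9.99), all of them above the overloaded wildtype arrays. It fell 1.55-fold in wildtype muscle (-0.64 ± 0.07, adjusted p = 2.6e-08) against -0.08 ± 0.07 in Mstn-/- (adjusted p = 0.37), a difference of 0.56 ± 0.10 (adjusted p = 0.00055). Etfb, the beta subunit, measured 11.38 to 11.54 (median 11.46) untreated and 10.44 to 11.18 (median 10.89) overloaded in wildtype. In the knockout it measured 11.24 to 11.43 (median 11.32) and 11.00 to 11.20 (median 11.11), without overlap. Its falls were 1.56-fold (-0.64 ± 0.08, adjusted p = 8.3e-08) and 1.17-fold (-0.22 ± 0.08, adjusted p = 0.018), which differed by 0.42 ± 0.11 (adjusted p = 0.011). Etfdh, the dehydrogenase, measured 10.55 to 10.81 (median 10.72) untreated and 9.30 to 10.04 (median 9.80) overloaded in wildtype. For Mstn-/- the values were 10.46 to 10.68 (median 10.51) and 9.99 to 10.45 (median 10.16), also without overlap. It fell 1.91-fold in wildtype muscle (-0.94 ± 0.10, adjusted p = 3e-09) and, in Mstn-/- muscle, 1.28-fold (-0.36 ± 0.10, adjusted p = 0.0024), a difference of 0.58 ± 0.14 (adjusted p = 0.0041). The overloaded genotypes differed by 0.39 ± 0.07 for Etfa (adjusted p = 0.00016), 0.28 ± 0.08 for Etfb (adjusted p = 0.0073) and 0.43 ± 0.10 for Etfdh (adjusted p = 0.001).

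Ucp3, the uncoupling protein of muscle mitochondria, whose RNA is known to follow the supply of fatty acids, had the largest difference between the responses of the whole set. Its promoter is shown for that reason (RefSeq, GRCm38.p6, chr7:100472741-100472990, plus strand, the 250 bases before the start, AGGTCA on either strand in capitals).
Ucp3: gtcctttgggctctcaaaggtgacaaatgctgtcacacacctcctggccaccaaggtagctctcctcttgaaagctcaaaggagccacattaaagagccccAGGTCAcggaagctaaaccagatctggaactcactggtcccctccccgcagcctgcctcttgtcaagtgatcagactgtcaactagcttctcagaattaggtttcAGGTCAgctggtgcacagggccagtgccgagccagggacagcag
The letters occur at -149 and at -44, both on the strand shown. Ucp3 measured 9.95 to 10.52 (median 10.34) untreated and 8.69 to 9.38 (median 9.17) overloaded in wildtype. Levels in Mstn-/- were 8.45 to 9.84 (median 9.35) untreated and 9.23 to 10.05 (median 9.79) overloaded. The wildtype groups did not overlap, the Mstn-/- groups did, and untreated Mstn-/- lay below untreated wildtype on every array. Ucp3 fell 2.37-fold in wildtype (-1.24 ± 0.18, adjusted p = 8.9e-07) and rose 1.37-fold in Mstn-/- (0.45 ± 0.18, adjusted p = 0.032), so that the responses differed by 1.69 ± 0.25 (adjusted p = 5.2e-05). It was 2.06-fold lower in Mstn-/- at rest (-1.04 ± 0.18, adjusted p = 0.00012) and 1.57-fold higher after overload (0.65 ± 0.18, adjusted p = 0.0054). The rise in Mstn-/- was lost without untreated Mstn-/- replicate 1 or 2 or overloaded Mstn-/- replicate 1, 5 or 6 (0.29 to 0.42, adjusted p up to 0.12), with array weights (0.36, adjusted p = 0.058), with only the 2 groups compared in the fit (adjusted p = 0.05) and with arrays shifted to the same median of the tested genes (0.37, adjusted p = 0.069).

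Pdk4, the kinase that switches off pyruvate dehydrogenase when fat is the fuel, measured 12.67 to 13.30 (median 13.08) untreated and 12.24 to 12.65 (median 12.45) overloaded in wildtype. The Mstn-/- arrays gave 12.25 to 12.60 (median 12.46) and 11.92 to 12.62 (median 12.48). Untreated wildtype lay above the other 3 groups, which overlapped. Pdk4 fell 1.48-fold in wildtype (-0.57 ± 0.11, adjusted p = 9.8e-05), its difference in Mstn-/- was -0.07 ± 0.11 (adjusted p = 0.61), and it was lower in Mstn-/- at rest (-0.59 ± 0.11, adjusted p = 5e-04). The difference of the responses, 0.50 ± 0.16 (adjusted p = 0.034), was lost without any 1 of 10 arrays (0.44 to 0.48, adjusted p up to 0.065). Acot2, a thioesterase of the mitochondrial matrix that releases free fatty acid from acyl-CoA, measured 10.74 to 11.41 (median 11.09) untreated and 9.72 to 10.29 (median 9.97) overloaded in wildtype. Its Mstn-/- levels were 10.39 to 10.72 (median 10.48) and 9.89 to 10.31 (median 10.26). Untreated and overloaded arrays were apart in both genotypes, and untreated Mstn-/- lay below untreated wildtype. The falls were 2.18-fold (-1.13 ± 0.11, adjusted p = 1.4e-09) and 1.24-fold (-0.31 ± 0.11, adjusted p = 0.017), which differed by 0.81 ± 0.16 (adjusted p = 0.00075). The fall in Mstn-/- was lost without overloaded Mstn-/- replicate 4 (-0.26), and a genotype difference after overload was called, among the fits that left out 1 array, only without overloaded wildtype replicate 4 (0.28).

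Promoter letters were counted over all members as a description. RefSeq windows of 300 bases, from 250 before to 50 after the start, were found for 28 of the 33 genes, and none was found for Lpl, Acaa2, Cpt1b, Crat and Decr1. AGGTCA on either strand occurred in 7 of the 28 genes (25%), namely Acacb, Acadm, Acadvl, Cd36, Plin2, Plin5 and Ucp3, against 18.1% of 27025 genes in the table. AAGGTCA, which contains the former, occurred in Acacb and Acadm (7.14%, against 5.38%). The direct repeat of AGGNCA with 1 base between the copies (N is any base), the letters of a PPAR site, occurred in 0 of the 28 and in 0.451% of all genes. Of the 7, Plin2 and Ucp3 rose in Mstn-/- muscle, the responses of Plin5 and Acacb were not called different, and those of Acadm, Acadvl and Cd36 were. Acadl, which also rose, and Acads, whose responses were also not called different, lacked the letters in this window.

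Marker RNA of several cell types differed with overload and with genotype, which does not tell cell number from RNA per cell. The counts below stand beside these shares of all genes. In wildtype 30.3% rose and 35.6% fell, and in Mstn-/- 27.1% rose and 33.5% fell. Between the genotypes 10.2% were lower in Mstn-/- at rest, and 17.5% were higher and 19% lower after overload. All 11 macrophage markers rose in both genotypes, and their summed intensity per array lay between 2901 and 3932 in untreated and between 14588 and 21897 in overloaded wildtype. In Mstn-/- it lay between 4199 and 5418 untreated and between 10137 and 18610 overloaded. The 7 myofibre markers summed to between 87274 and 88476 in untreated and between 67446 and 78807 in overloaded wildtype. In Mstn-/- these sums were 86234 to 91506 and 80078 to 86127, with 5 of 7 markers falling and 1 rising in wildtype and 6 of 7 falling in Mstn-/-. Myh4 and Tnnt3 are in both this list and the fast-fibre list. In wildtype Myh4 fell most of the 7 (-1.08 ± 0.10), Acta1 was not called (0.03 ± 0.04) and Des rose (0.11 ± 0.04). Fast-fibre markers fell for 6 of 8 in wildtype and 5 of 8 in Mstn-/-, with 1 of 8 rising there, and their sums were 84248 to 85675 untreated and 53150 to 67709 overloaded in wildtype, and 86367 to 93185 and 79862 to 86293 in Mstn-/-. Slow-fibre markers rose for 6 of 8 in wildtype, with 1 falling, and 5 of 8 in Mstn-/-, and 7 of 8 were lower in Mstn-/- at rest. Their sums were 8551 to 13716 and 15051 to 22776 in wildtype, and 3020 to 4063 and 7142 to 8666 in Mstn-/-. Of 7 adipocyte markers 3 fell in wildtype, Lipe being 1 of them, and 1 rose in Mstn-/-, with overlapping sums of 3719 to 7038 and 3389 to 4589 in wildtype and 2585 to 5017 and 3506 to 5564 in Mstn-/-. Endothelial markers rose for 7 of 9 in wildtype and 8 of 9 in Mstn-/-, with sums of 5537 to 6975 and 6886 to 9009, and of 5234 to 6195 and 7769 to 9207. Markers of fibro-adipogenic progenitors rose for 5 of 5 and 4 of 5, with sums of 9911 to 12579 and 18795 to 21595, and of 10622 to 12940 and 14172 to 16441. Between the overloaded muscles, all 8 slow-fibre markers were lower in Mstn-/- than in wildtype (median -1.31) and 7 of 8 fast-fibre markers were higher (median 0.27). Of the other lists in that comparison, 3 of 7 myofibre markers were higher and 1 lower, 3 of 11 macrophage markers were lower, and 4 of 5 markers of fibro-adipogenic progenitors were lower. On single arrays an adipocyte marker went down to an intensity of 71.7 (overloaded wildtype) and a macrophage marker to 91.3 (untreated wildtype). Both lie below the filter intensity of 98.9. The part of these cell types in the differences of the fatty acid genes was not tested. Once arrays were shifted to the same mean of the myofibre markers, 27 of the 30 genes were lower in wildtype (14.3% of all genes) and 11 in Mstn-/- (16%). The responses of 23 differed upward (668 of 14723 genes). After overload 9 were higher and 2 lower in Mstn-/- than in wildtype, against 17 and 0 without the shift. Over all genes 1135 were then higher and 8520 lower.

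**Figure D4:**
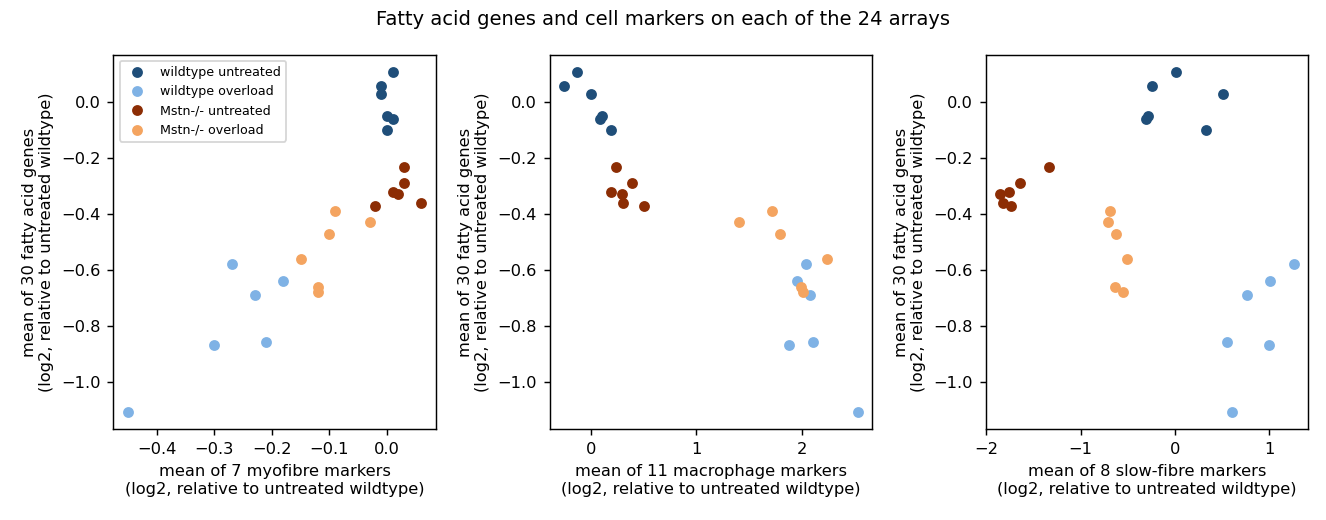
Mean of the 30 fatty acid genes on each of the 24 arrays (vertical axis) against the mean of 7 myofibre, 11 macrophage and 8 slow-fibre markers (horizontal axes), all as log2 differences from untreated wildtype; each point is 1 array, coloured by group. Overloaded wildtype arrays lie at -1.11 to -0.58 and overloaded Mstn-/- arrays at -0.68 to -0.39, and the lowest point is overloaded wildtype replicate 3, which also has the lowest myofibre (-0.45) and the highest macrophage mean (2.53).

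Genes of the respiratory chain and the citric acid cycle, into which the fatty acid genes feed, also fell under overload in wildtype. Of 27 tested genes of that list 27 fell there (35.6% of all genes), with a median of -0.65. In Mstn-/- 9 fell, about the share of all genes (33.5%), and 18 were not called, with a median of -0.16. The responses of 23 differed upward (8.92%), with a median of 0.44. At rest 7 of the 27 were lower in Mstn-/- (10.2%) and 1 was higher (11.1%), with a median of -0.12. After overload 19 were higher (17.5%) and 0 lower (19%), with a median of 0.31. Suclg1, a subunit of succinyl-CoA ligase, fell in wildtype (-0.87 ± 0.08, adjusted p = 5e-10) against -0.17 ± 0.08 in Mstn-/- (adjusted p = 0.08). Idh3a, a subunit of isocitrate dehydrogenase, fell in wildtype (-1.05 ± 0.10, adjusted p = 1.5e-09) against -0.31 ± 0.10 in Mstn-/- (adjusted p = 0.012). No difference between this list and the fatty acid genes was tested.

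Other genes of fatty acid uptake and activation were mixed. Of 15 tested, 6 rose and 6 fell in wildtype, 7 rose and 2 fell in Mstn-/-, and 6 differed in response upward and 1 downward. Of all genes 30.3% rose and 35.6% fell in wildtype, and 27.1% rose and 33.5% fell in Mstn-/-. The responses differed upward for 8.92% of all genes and downward for 8.44%. The same shares apply to the pathway lists that follow. Acsl5, an acyl-CoA synthetase, rose 1.86-fold in wildtype (0.89 ± 0.09, adjusted p = 3.8e-09) and, in Mstn-/- muscle, 2.04-fold (1.03 ± 0.09, adjusted p = 6.4e-10). Angptl4, a secreted inhibitor of lipoprotein lipase, rose by 0.77 ± 0.09 in wildtype (adjusted p = 2.9e-08) and by 0.79 ± 0.09 in Mstn-/- (adjusted p = 3.5e-08), and it was lower in Mstn-/- at rest (-0.72 ± 0.09, adjusted p = 1.5e-06) and after overload (-0.70 ± 0.09, adjusted p = 1.3e-06). Fabp5, a binding protein of epidermis and macrophages, rose 2.13-fold in wildtype (1.09 ± 0.15, adjusted p = 3e-07) and, in Mstn-/- muscle, 2.88-fold (1.53 ± 0.15, adjusted p = 2e-09), and the difference of 0.44 ± 0.21 was not called (adjusted p = 0.16). Vldlr, the receptor for very low density lipoprotein, fell 2.19-fold in wildtype (-1.13 ± 0.14, adjusted p = 1.2e-07) and, in Mstn-/- muscle, 2.02-fold (-1.01 ± 0.14, adjusted p = 1.1e-06). Slc22a5, the carnitine importer, fell in wildtype (-0.35 ± 0.05, adjusted p = 2.6e-06) against 0.11 ± 0.05 in Mstn-/- (adjusted p = 0.087), a difference of 0.46 ± 0.08 (adjusted p = 0.00018). Gpihbp1, which anchors lipoprotein lipase to the capillary, fell in wildtype (-0.31 ± 0.07, adjusted p = 7e-04) and rose by 0.25 ± 0.07 in Mstn-/- (adjusted p = 0.0062).

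Of 15 other tested genes of droplets, lipolysis and triglyceride synthesis, 11 fell and 0 rose in wildtype, while 6 fell and 3 rose in Mstn-/-. Plin4, another droplet coat, fell 2.52-fold in wildtype (-1.33 ± 0.09, adjusted p = 1.2e-12) and differed in response by 0.75 ± 0.13 (adjusted p = 0.00018). Lpin1, a phosphatidate phosphatase, fell in wildtype (-1.44 ± 0.12, adjusted p = 3.8e-11) and in Mstn-/- (-1.19 ± 0.12, adjusted p = 2.4e-09). Gpam, the first acyltransferase of glycerolipid synthesis, rose in Mstn-/- (0.40 ± 0.10, adjusted p = 0.002), fell in wildtype (-0.72 ± 0.10, adjusted p = 1.1e-06) and differed in response by 1.12 ± 0.15 (adjusted p = 1.2e-05). Mgll, monoglyceride lipase, also rose in Mstn-/- (0.57 ± 0.09, adjusted p = 2.4e-06), from a lower resting level (-0.68 ± 0.09, adjusted p = 1.7e-06). Plin3, the perilipin found in most cells, fell in wildtype (-0.22 ± 0.06, adjusted p = 0.0019) and in Mstn-/- (-0.73 ± 0.06, adjusted p = 1.5e-10). Its responses differed the other way (-0.50 ± 0.08, adjusted p = 0.00021), with the larger fall in Mstn-/-.

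Of 19 other tested genes of mitochondrial oxidation, 15 fell and 4 rose in wildtype, and 12 fell and 4 rose in Mstn-/-; 11 differed in response upward and 1 downward. Acadsb, a dehydrogenase for branched short chains, fell in wildtype (-1.17 ± 0.07, adjusted p = 3.4e-13) and in Mstn-/- (-0.84 ± 0.07, adjusted p = 3.2e-10). Acad11 fell in wildtype (-1.31 ± 0.09, adjusted p = 1.1e-12) and in Mstn-/- (-0.67 ± 0.09, adjusted p = 3.3e-07), and its responses differed by 0.64 ± 0.12 (adjusted p = 0.00075). Cpt1a, the carnitine palmitoyltransferase of liver and many other cells, rose 2.04-fold in wildtype (1.03 ± 0.12, adjusted p = 2e-08) and, in Mstn-/- muscle, 2.74-fold (1.46 ± 0.12, adjusted p = 9.5e-11), opposite to Cpt2 in wildtype. Cpt1c, the form of neurons, rose by 0.86 ± 0.06 in wildtype (adjusted p = 1.8e-12) and by 0.51 ± 0.06 in Mstn-/- (adjusted p = 4.9e-08). Pdk3, a kinase related to Pdk4, rose 2.88-fold in wildtype (1.53 ± 0.12, adjusted p = 1.3e-11) and, in Mstn-/- muscle, 2.41-fold (1.27 ± 0.12, adjusted p = 8.3e-10), whereas Pdk2 differed in response by 0.61 ± 0.13 (adjusted p = 0.0024). Of 13 tested peroxisomal genes 8 fell and 1 rose in wildtype, and 7 fell and 1 rose in Mstn-/-. Abcd2, a peroxisomal importer of very long chains, fell 3.09-fold in wildtype (-1.63 ± 0.13, adjusted p = 3.1e-11) and differed in response by 0.94 ± 0.18 (adjusted p = 9e-04), and Ehhadh, the bifunctional enzyme, fell in wildtype (-0.68 ± 0.07, adjusted p = 4.8e-09) and in Mstn-/- (-0.76 ± 0.07, adjusted p = 1.5e-09).

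Of 20 tested regulators of these genes 15 fell and 1 rose in wildtype, 10 fell and 4 rose in Mstn-/-, and 9 differed in response upward and 1 downward. Ppargc1a, which encodes the coactivator PGC-1alpha, fell 2.47-fold in wildtype (-1.31 ± 0.12, adjusted p = 3.4e-10) against 0.08 ± 0.12 in Mstn-/- (adjusted p = 0.59), and its responses differed by 1.38 ± 0.17 (adjusted p = 4.4e-06). Ppara, the fatty acid receptor PPARalpha, fell 3.2-fold in wildtype (-1.68 ± 0.11, adjusted p = 1.6e-12) and, in Mstn-/- muscle, 1.51-fold (-0.60 ± 0.11, adjusted p = 6.9e-05), a difference of 1.08 ± 0.16 (adjusted p = 5.3e-05). Klf15, a transcription factor of lipid use in muscle, fell 2.22-fold in wildtype (-1.15 ± 0.07, adjusted p = 1.7e-13) and, in Mstn-/- muscle, 2.05-fold (-1.04 ± 0.07, adjusted p = 3.3e-12). Rxrg, a partner of the PPARs, fell in wildtype (-1.80 ± 0.12, adjusted p = 5.4e-13) and in Mstn-/- (-0.94 ± 0.12, adjusted p = 1.4e-07). After overload it was 0.83 ± 0.12 higher in Mstn-/- than in wildtype (adjusted p = 4.2e-06). Ppard, the PPAR most abundant in muscle, fell in wildtype (-0.35 ± 0.05, adjusted p = 6.3e-07) and in Mstn-/- (-0.58 ± 0.05, adjusted p = 1.9e-10). It was the regulator with a downward difference of the responses (-0.23 ± 0.07, adjusted p = 0.019). Pparg, the receptor of fat cells and macrophages, rose by 0.74 ± 0.11 in Mstn-/- (adjusted p = 3e-06) against -0.09 ± 0.11 in wildtype (adjusted p = 0.5).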

How the data were processed

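Plantaris RNA of 24 samples was measured on Affymetrix whole-transcript arrays, 6 per group. The authors deposited 1 table of intensity values per probe set, made with RMA per the submitters' processing notes (no version is given there). Its values run from 4.72 to 25588.9 and were found to be on a linear scale, so log2 was taken with no pseudocount. Of 34760 probe sets, 21640 have 1 gene symbol in the platform annotation, 1321 have several and 11799 have none; only the first kind was named. For each of 19937 genes the probe set with the highest mean was kept, and 14499 genes were tested, those with at least 1 group mean above the 30th percentile (intensity 98.9). RMA equalises the arrays, so a shift shared by most genes would be removed.

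limma 3.58.1 in R 4.3.3 was fitted to all 24 arrays with 1 mean per group and no covariate (20 residual degrees of freedom), with Benjamini-Hochberg adjustment over all tested genes in each comparison. The script was tested on simulated data. The number of arrays limits the precision: the median SE of a difference was 0.067. No pair of arrays shared more than 0.0201% identical values. No batch is named. Arrays sharing a replicate number did not deviate together, so no block was used.

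The 33 genes, the pathway and marker lists and the tests were chosen with earlier results of these data known. All measured members are named, with lowest, median and highest arrays for those past the test of the response difference or among the strongest of a comparison; of the other lists, up to 2 genes per direction and comparison with the smallest adjusted p could be named. Alternatives were normalization, filter, probe set rule, array weights, prior, block, groups in the fit and leaving out each array; 2 shifts of the arrays were added after the data were seen. Promoter windows are RefSeq's, GRCm38.p6; which genome build the platform annotation used was not stated in those notes or labels.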

Additional observations from a re-analysis of the deposited data

Results flagged for a closer look

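In 120 combinations of a gene and a group, 6 had 1 array far from the others of its group by Dixon's criterion; chance flags about 1 in 20. Untreated Mstn-/- replicate 2 was the outlying array for Pnpla2 (log2 level 10.82), Eci2 (9.27) and Acot2 (10.72). Overloaded wildtype replicate 3 was outlying for Crat (11.06) and Mlycd (7.69), and untreated wildtype replicate 5 for Lpl (12.10).

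The overload response differed between the genotypes, by limma's test of that difference, for 27 genes. The values are log2 differences, Mstn-/- response minus wildtype response. Among uptake genes they were 0.82 for Lpl, 0.44 for Cd36, 0.68 for Fabp3 and 0.75 for Slc27a1. Among droplet genes they were 0.63 for Plin2, 0.41 for Pnpla2 and 0.55 for Lipe. In the carnitine shuttle they were 0.69 for Cpt2, 0.54 for Slc25a20, 0.32 for Crat and 0.39 for Mlycd. In the spiral they were 0.47 for Acadvl, 0.66 for Acadl, 0.70 for Acadm, 0.57 for Hadha, 0.65 for Hadhb, 0.54 for Hadh and 0.87 for Acaa2. For the enzymes of unsaturated fatty acids they were 0.63 for Eci1, 0.32 for Eci2 and 0.68 for Decr1. In electron transfer they were 0.56 for Etfa, 0.42 for Etfb and 0.58 for Etfdh. The remaining values were 1.69 for Ucp3, 0.50 for Pdk4 and 0.81 for Acot2.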

How the results depend on the processing

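No gene's direction reversed under any of the 11 settings or with any 1 array left out, among values called in at least one of the fits compared. The count of genes lower in overloaded wildtype ranged from 27 to 30 over the settings and was 29 without any 1 array. The count with a positive response difference ranged from 23 to 27, and from 24 to 27 without 1 array. The count lower in overloaded Mstn-/- ranged from 11 to 20, and from 13 (without overloaded Mstn-/- replicate 4) to 18; those higher there ranged from 2 to 3 without 1 array, and were 1 with arrays shifted to the same median of the tested genes. At rest the count lower in Mstn-/- ranged from 17 to 23, and from 14 (without untreated wildtype replicate 5) to 20, and those higher were 1 with array weights, 1 with only the groups compared, and 0 to 1 without 1 array (1 without overloaded wildtype replicate 4). After overload the count higher in Mstn-/- ranged from 12 to 19 without 1 array, and with arrays shifted to the same mean of 7 myofibre markers it was 9, with 2 lower (Plin5 and Pdk4). Of those markers Myh4, also a fast-fibre marker, differed most between the overloaded genotypes (0.92 ± 0.10, limma adjusted p = 1.4e-07). The other markers differed by -0.23 to 0.20. Small genotype differences carried most lost calls: under quantile normalization Cd36, Acacb and Hadhb were no longer called higher after overload (0.17, 0.25 and 0.25), and with only the groups compared Slc25a20 (0.30) and Acadvl (0.29) also were not. The causes of these changes were not tested.

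The replicate block changed 4 of 150 gene results: Acads and Hadhb became lower in overloaded Mstn-/- (-0.16 and -0.23), Cd36 lost and Acads gained its call after overload (0.19 and 0.18). With the block 29 of the 30 genes fell in wildtype, 18 fell and 3 rose in Mstn-/-, 18 were lower at rest, 17 higher after overload and 27 differed in response, and over all genes 5129 instead of 5164 fell in wildtype. Same-numbered arrays had a median correlation of deviations of 0.02 over 36 pairs, 9 of them over 0.1, and 4 of 24 arrays correlated best with their own number, so the numbers were not taken as a pairing. All group means of the 30 genes lay above the filter, which is a percentile of the intensities, and signal over background was not measured.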

Other observations

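Fatty acid synthesis and elongation genes, outside the catabolic set, moved in both directions. Of 13 tested genes 5 rose and 4 fell in wildtype, where 30.3% and 35.6% of all genes did. In Mstn-/- 5 rose and 2 fell, where 27.1% and 33.5% of all genes did. The response of 1 gene differed, upward (8.92% of all genes). Elovl5, an elongase of polyunsaturated fatty acids, rose in wildtype (log2 0.97 ± 0.08, limma adjusted p = 1.4e-10) and in Mstn-/- (log2 1.01 ± 0.08, limma adjusted p = 1.4e-10). Me1, malic enzyme, which supplies NADPH for synthesis, fell in wildtype (log2 -1.59 ± 0.08, limma adjusted p = 1.5e-14) and in Mstn-/- (log2 -1.35 ± 0.08, limma adjusted p = 9.4e-13). At rest 6 of the 13 were lower in Mstn-/- than in wildtype (10.2% of all genes) and 0 higher (11.1%), with a median of -0.33. After overload 5 were lower (19%) and 1 was higher (17.5%), with the same median. Elovl6 was among those lower at rest (log2 -1.30 ± 0.24, limma adjusted p = 0.00025). It was the 1 gene of this list called for the difference of the responses (log2 1.03 ± 0.33, limma adjusted p = 0.034).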
